A study of Homo sapiens with 8 samples.

Results

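The transcripts of YAP1, of its paralog TAZ (gene WWTR1), of their DNA-binding partners TEAD1, TEAD2 and TEAD4, and of 5 genes that YAP and TAZ are known to activate (CCN1, CCN2, AMOTL2, LATS2 and ANKRD1) were followed across the 4 conditions of an RNA sequencing study of MYCL in prostate cancer cells. The members were taken by gene name, and all 10 were found, each on a single row, among the 78691 rows of the count table. C4-2B, a castration-resistant prostate adenocarcinoma (AdPC) line, was transduced with an empty lentivirus (control) or with a lentivirus in which the EF1A promoter drives human MYCL and EGFP (MYCL-overexpressing). NCI-H660, a neuroendocrine prostate cancer (NEPC) line, received shRNA directed at MYCL (shMYCL) or a non-targeting shRNA (shCtrl). The sources differ on the construct, since the design text names an adenoviral vector and the sample labels speak of stable knockdown, and the methods of the study describe both an adenoviral vector with several MYCL shRNAs, for transient use, and a lentiviral one. Which of them these libraries carried is not settled. Each condition had 2 libraries, made from poly(A)-selected RNA and read as paired ends. Each line stands for a single tumor, and only the C4-2B control libraries are labelled as biological replicates, so that p-values measure the spread between these libraries, which may be technical in the other groups. For a single gene, the smallest p that an exact permutation of 2 libraries against 2 can give is 0.33, and the tests given here are those of a fit across all genes.

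In the Hippo pathway the kinases MST1 and MST2 (STK4 and STK3), with the scaffold SAV1, activate LATS1 and LATS2, which phosphorylate YAP and TAZ and keep them out of the nucleus. Unphosphorylated YAP and TAZ enter the nucleus, bind a TEAD protein there, and raise the transcription of genes such as CCN1 and CCN2, while LATS2 and AMOTL2 are targets that act back on YAP and TAZ. Much of this control acts on the proteins, which RNA levels do not show. Loss of YAP1 is a known feature of neuroendocrine carcinomas of the prostate and lung.

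TEAD proteins bind a short element whose core reads GGAATG. RefSeq promoter windows of 300 bases, from 250 bases before to 50 after a transcription start (GRCh38.p14), were given for 7 of the members, with no entry for CCN1, TEAD1 or TEAD4. The letters GGAATG or their reverse complement CATTCC, which do not overlap each other, stood in 14.0% of all 35116 such windows, with 2 or more copies in 1.37% and 3 or more in 0.128%. The CCN2 window held 3 copies, starting 169, 104 and 95 bases before the start, and the ANKRD1 window held 2, starting 220 and 128 bases before it. The YAP1 window, the second of 2 AMOTL2 windows and the LATS2 window held 1 each, and neither of the 2 WWTR1 windows nor of the 2 TEAD2 windows held any. The 250 bases before the start of the 3 target genes with a copy there are shown, each on the minus strand and read 5′ to 3′, since the measurements below differ widely between them, with the 6 matching letters in capitals. A match describes the letters and was not tested as a binding site.
CCN2 (chr6:131951373-131951622): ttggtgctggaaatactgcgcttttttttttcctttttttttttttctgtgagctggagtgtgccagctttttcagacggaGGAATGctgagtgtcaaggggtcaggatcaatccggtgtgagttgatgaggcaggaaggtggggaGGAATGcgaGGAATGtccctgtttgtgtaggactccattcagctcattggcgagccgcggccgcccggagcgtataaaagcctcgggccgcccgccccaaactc
ANKRD1 (chr10:90921088-90921337): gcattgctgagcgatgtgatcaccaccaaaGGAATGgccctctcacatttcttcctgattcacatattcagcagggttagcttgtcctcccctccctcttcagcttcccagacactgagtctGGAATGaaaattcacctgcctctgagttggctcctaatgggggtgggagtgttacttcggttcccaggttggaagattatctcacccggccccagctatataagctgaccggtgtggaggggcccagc
AMOTL2 (chr3:134374448-134374697): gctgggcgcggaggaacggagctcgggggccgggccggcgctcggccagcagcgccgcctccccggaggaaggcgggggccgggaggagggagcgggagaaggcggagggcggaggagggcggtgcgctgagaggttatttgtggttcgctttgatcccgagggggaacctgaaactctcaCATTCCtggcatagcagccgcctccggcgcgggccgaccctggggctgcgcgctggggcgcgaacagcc

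The libraries held between 15177071 and 32344170 counts, of which the deepest were the 2 C4-2B controls. MYCL, the targeted gene, had 371 and 320 counts in the C4-2B controls and 65524 and 70253 in the MYCL-overexpressing libraries, and it was lower in shMYCL than in shCtrl libraries with a log2 fold change (log2FC) of -3.06 (SE 0.15, adjusted p = 4.29e-09). The lines carried their own markers, with 8 luminal genes summing to 2094 to 2106 TPM (a level scaled to transcript length and library size) in C4-2B controls and 8 neuroendocrine genes summing to 1140 to 1298 TPM in shCtrl libraries. The luminal sum was 1350 to 1492 TPM with MYCL overexpression, and the neuroendocrine sum was 835 to 928 TPM with shMYCL. Short lists of fibroblast, endothelial, leukocyte and basal markers each summed to at most 3.83 TPM in any library. DCN was at 0 throughout, but LUM had 26 and 34 counts and CDH5 87 and 99 in shCtrl libraries. PDGFRB had 25 and 33 counts in C4-2B controls. The basal list was read from KRT5 and KRT14, since TP63 had no row in the count table. The part of the luminal and neuroendocrine shifts in the results below was not tested, and in bulk RNA fewer cells of a type and less RNA per cell cannot be told apart.

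YAP1 was the leading coactivator transcript in C4-2B cells, whereas NCI-H660 cells held YAP1 and WWTR1 at similar levels. YAP1 (chromosome 11, 102110447 to 102233424, plus strand, in GENCODE 44 on GRCh38) was at 34.6 and 39.1 TPM in the C4-2B controls, 35.0 and 30.5 TPM in MYCL-overexpressing cells, 6.95 and 6.31 TPM in shCtrl cells and 9.14 and 9.32 TPM in shMYCL cells. WWTR1 (chromosome 3, 149517235 to 149736714, minus strand), which encodes TAZ, ran the other way, at 0.545 and 0.699 TPM in the C4-2B controls, 0.149 and 0.0622 TPM with MYCL, 6.52 and 5.71 TPM in shCtrl and 6.45 and 7.56 TPM in shMYCL. In the order of group means, the YAP1 libraries of the 2 C4-2B groups overlapped, as did the WWTR1 libraries of the 2 NCI-H660 groups, and no other neighbours in either order did. YAP1 therefore made up between 98.2% and 98.5% of the summed TPM of the pair in C4-2B controls and between 51.6% and 52.5% in shCtrl cells. The summed level of the pair was 35.2 and 39.8 TPM in C4-2B controls against 13.5 and 12.0 TPM in shCtrl cells.

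**Figure D1:**
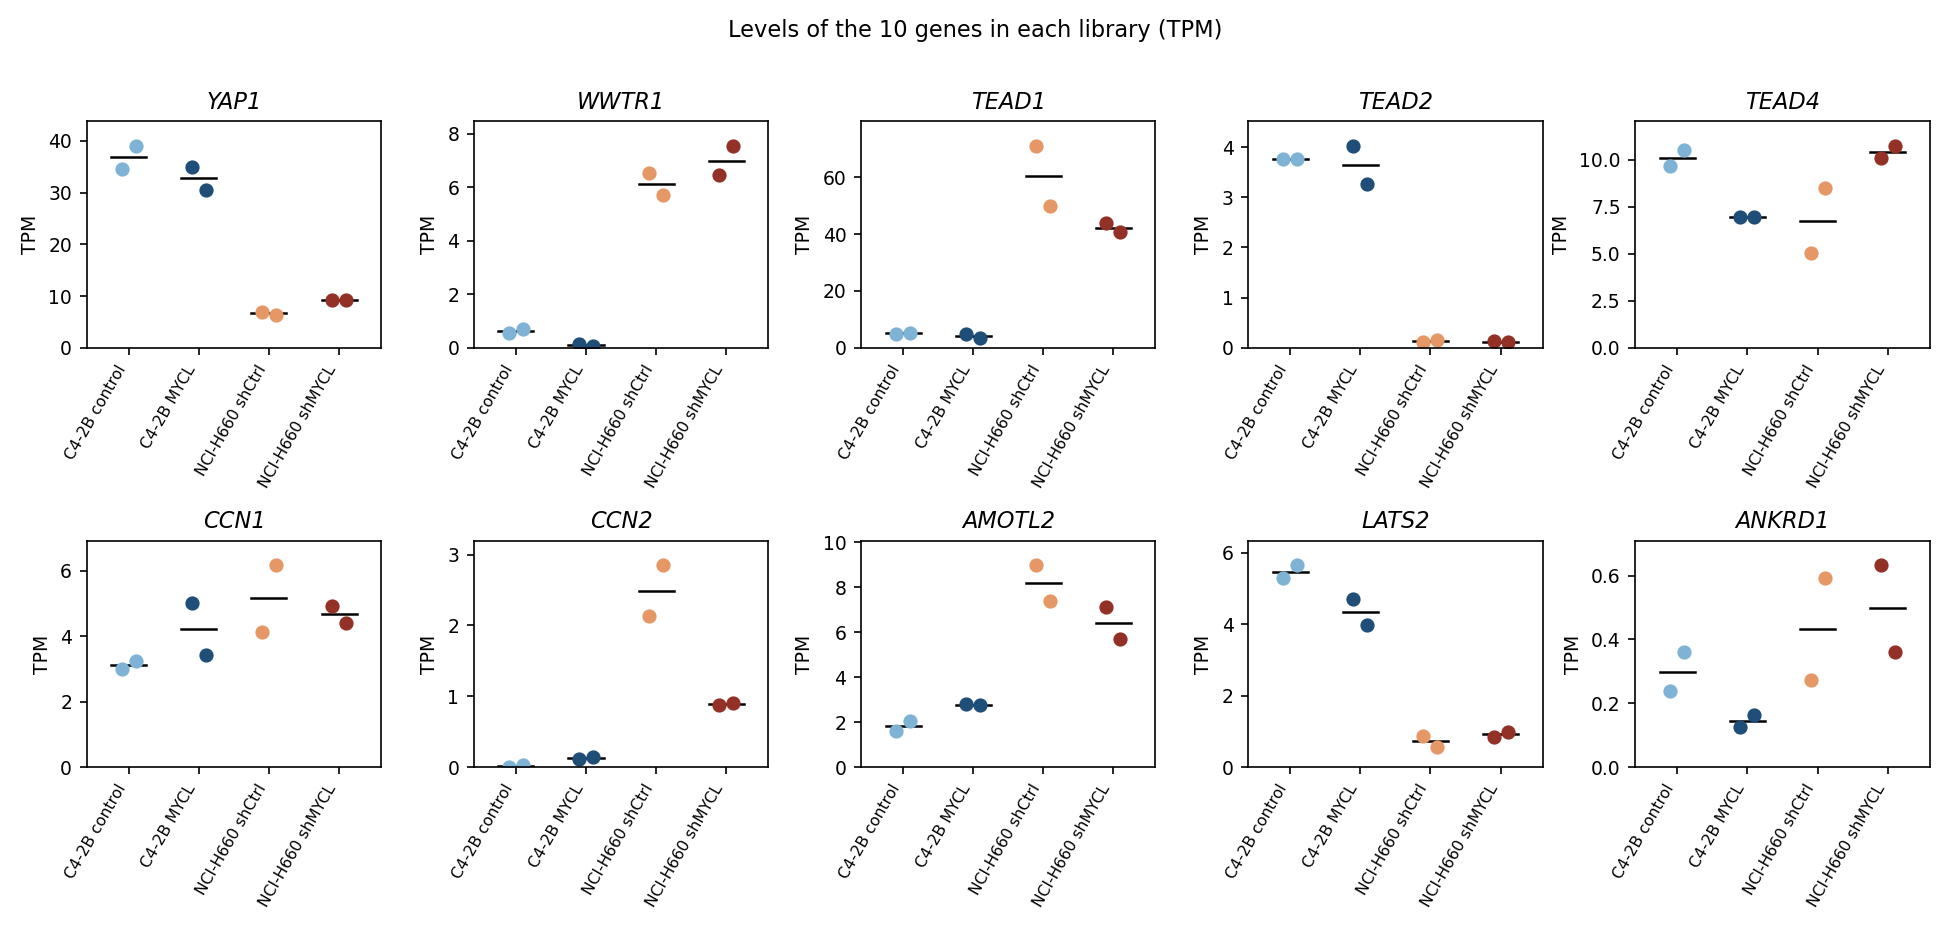
Level of each of the 10 genes in TPM, on a linear axis from 0, in the 8 libraries; each point is a library and each bar the mean of the 2 libraries of a condition. YAP1, TEAD2 and LATS2 were higher in all 4 C4-2B libraries, WWTR1, TEAD1, CCN2 and AMOTL2 in all 4 NCI-H660 libraries, and ANKRD1 stayed at or under 0.632 TPM throughout.

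The TEAD family was composed differently in the 2 lines. TEAD1 (chromosome 11, 12674421 to 12944737, plus strand) was at 4.92 and 5.36 TPM in the C4-2B controls, 4.79 and 3.38 TPM with MYCL, 71.1 and 49.97 TPM in shCtrl and 43.7 and 40.8 TPM in shMYCL cells. TEAD2 (chromosome 19, 49340595 to 49362457, minus strand) was at 3.76 and 3.77 TPM in the C4-2B controls and 4.03 and 3.26 TPM with MYCL, but had only 2 or 3 counts in each of the 4 NCI-H660 libraries. TEAD4 (chromosome 12, 2959330 to 3040676, plus strand) was at 9.70 and 10.5 TPM in the C4-2B controls, 6.95 and 6.97 TPM with MYCL, 5.05 and 8.49 TPM in shCtrl and 10.1 and 10.8 TPM in shMYCL cells. The TPM of TEAD4 thus differed far less between the lines than that of TEAD1 or TEAD2. In TPM the shMYCL libraries overlapped the C4-2B controls, but in CPM, counts scaled by library size and normalized across the 8 libraries, they lay under them, at 7.74 and 9.08 CPM against 11.9 and 13.4 CPM. As a share of the summed TPM of TEAD1 to TEAD4, TEAD1 took 17.3% and 18.4% in C4-2B controls and 80.3% and 71.7% in shCtrl cells, while TEAD2 took 13.2% and 12.9% against 0.121% and 0.214%. With shMYCL the TEAD1 share was 65.1% and 63.4%, under both shCtrl libraries. The summed TPM of YAP1 and WWTR1 was 1.24 and 1.36 times that of the TEAD genes in C4-2B controls, and 0.152 and 0.172 times in shCtrl cells.

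**Figure D2:**
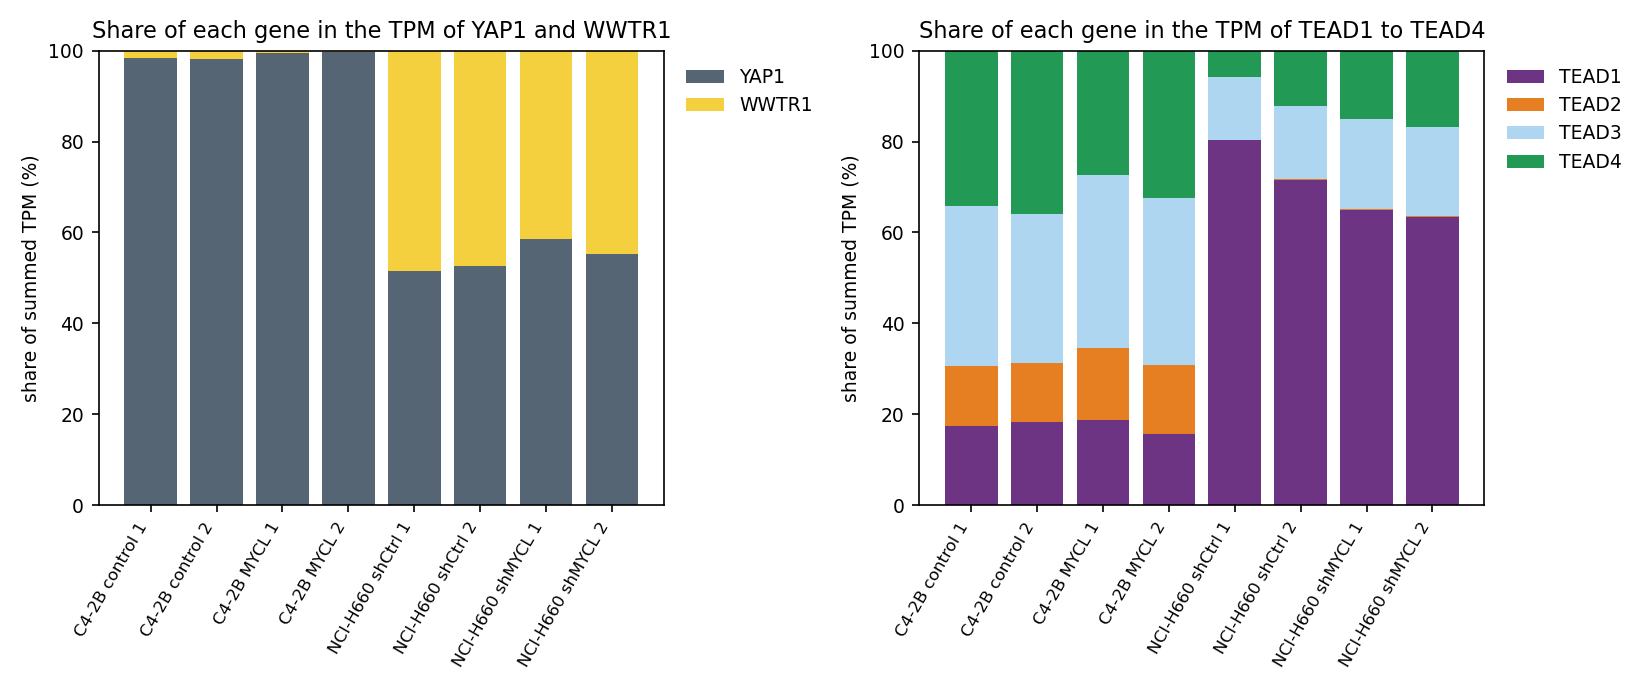
Share (%) of each gene in the summed TPM of YAP1 and WWTR1 (left) and of TEAD1 to TEAD4 (right), 1 bar per library with its replicate number. WWTR1 took 1.55% and 1.76% of the pair in C4-2B controls and 48.4% and 47.5% in shCtrl cells, and TEAD1 was the largest TEAD share in every NCI-H660 library.

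The 5 target genes did not share a pattern. CCN1 (chromosome 1, 85580761 to 85584589, plus strand), a secreted matrix-associated protein also known as CYR61, lay between 3.02 and 6.18 TPM in all 8 libraries, and the groups next to each other in its order overlapped, apart from MYCL-overexpressing over control C4-2B. CCN2 (chromosome 6, 131948176 to 131951372, minus strand), the related connective tissue growth factor CTGF, had 0 and 1 counts in the C4-2B controls, 4 and 5 with MYCL, 45 and 66 in shCtrl and 15 and 17 in shMYCL cells. Its 4 conditions did not overlap. AMOTL2 (chromosome 3, 134355347 to 134375479, minus strand), an angiomotin family protein that binds YAP, was at 1.62 and 2.07 TPM in the C4-2B controls, 2.81 and 2.75 TPM with MYCL, 8.98 and 7.39 TPM in shCtrl and 7.11 and 5.71 TPM in shMYCL cells. LATS2 (chromosome 13, 20973036 to 21061586, minus strand), a kinase that inhibits YAP and TAZ, went opposite to AMOTL2 between the lines, at 5.29 and 5.65 TPM in C4-2B controls, 4.70 and 3.98 TPM with MYCL, 0.869 and 0.578 TPM in shCtrl and 0.844 and 0.994 TPM in shMYCL cells. ANKRD1 (chromosome 10, 90912096 to 90921087, minus strand), a nuclear cofactor best known in muscle, had between 3 and 11 counts in each library and was too low for the count filter when all libraries of a comparison were used. It passed in some fits without a single library or without a filter, and was called in none of them. Exons of WWTR1, TEAD2, YAP1 and CCN2 share 756, 319, up to 628 and 278 bases with a gene on the opposite strand, and AMOTL2 shares 187 with the pseudogene RPL39P5. The strand setting of the counting is not given in the sources used here, so reads there may be split or shared.

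WWTR1 fell and AMOTL2 rose in MYCL-overexpressing C4-2B cells, while YAP1 and the TEAD genes did not pass the test. The calls required an adjusted p under 0.05 together with a log2FC of 0.5 or more in either direction. Of the 8 members that passed the filter on low counts, 1 was called higher and 1 lower, and among all 16866 genes tested 19.9% were called, 11.8% higher and 8.12% lower. The share of members called is near that background and is no result about the genes as a group. Their median log2FC was -0.11, against -0.00 over all genes.

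WWTR1 had 67 and 53 counts in the controls and 11 and 5 in the MYCL-overexpressing libraries. In normalized CPM that was 2.27 ± 0.12 against 0.464 ± 0.23 (SD, 2 libraries each), with a log2FC of -2.26 (SE 0.45, adjusted p = 0.00498 by edgeR's quasi-likelihood test). The groups did not overlap, although the gene was already the minor member of the pair in the controls. AMOTL2 was at 6.21 and 7.73 CPM in the controls and 11.1 and 12.2 CPM with MYCL, a log2FC of 0.75 (SE 0.17, adjusted p = 0.0087). This call was lost without control replicate 1 (log2FC 0.58, adjusted p = 0.0583). YAP1 was at 155 and 170 CPM against 165 and 153 CPM, with overlapping groups and a log2FC of -0.02 (95% interval -0.20 to 0.16).

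The remaining tested members had intervals that reach past the fold minimum or stay close to 0. CCN1 was at 5.27 and 5.51 CPM in the controls and 9.34 and 6.76 CPM with MYCL, a log2FC of 0.59 that missed the threshold (95% interval 0.10 to 1.07, adjusted p = 0.0612) and passed it without MYCL replicate 2 (0.80, adjusted p = 0.00868). Without MYCL replicate 1 it was 0.34 (adjusted p = 0.313), so the size of the CCN1 change depended on which of these libraries was kept. TEAD4 was at 11.9 and 13.4 CPM against 9.34 and 10.1 CPM, a log2FC of -0.37 (95% interval -0.68 to -0.05, adjusted p = 0.0699). The intervals were -0.52 to 0.09 for TEAD1, -0.38 to 0.40 for TEAD2 and -0.42 to 0.04 for LATS2, none of which passed. CCN2 was under the count filter in the fit of the C4-2B libraries, with 9 counts over the MYCL-overexpressing libraries and 1 over the controls. That is a ratio of 14.1 per library size, with a 95% counting interval of 1.95 to 616 that covers counting error only. In the fit of all 4 groups, CCN2 was called higher with MYCL in C4-2B (log2FC 3.42, SE 1.00, adjusted p = 0.022). It passed the filter there only through its NCI-H660 counts, so this call is no result about C4-2B. In the C4-2B fit without a filter it was not called (3.40, SE 1.92, adjusted p = 0.26). For ANKRD1, with 21 counts in controls and 6 with MYCL, the ratio of control to MYCL was 2.24 (0.875 to 6.79), an interval that includes equal levels.

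The 2 lists put these changes beside the rest of the pathway. The first is a commonly used YAP and TAZ target signature of 22 genes, less the members that belong to it. The second was compiled from general knowledge. Among 17 other YAP and TAZ targets, 11 were tested, 1 rose, 1 fell and 9 were not called, with a median log2FC of -0.10. Over all genes 19.9% were called, 11.8% higher and 8.12% lower. GADD45A, a stress-induced growth arrest gene, rose from 14.2 and 14.0 CPM to 75.0 and 65.0 CPM (log2FC 2.32, SE 0.10, adjusted p = 3.91e-06). FJX1 fell from 4.45 and 5.42 CPM to 2.22 and 3.26 CPM (-0.84, SE 0.28, adjusted p = 0.0434). Among 21 Hippo pathway and TEAD cofactor genes, 18 were tested, 2 rose, 2 fell and 14 were not called, with a median of -0.06. The share called in either list is near the 19.9% over all genes and is no result about the list as a group. The upstream scaffold WWC2 had 4 counts in each control and 13 and 14 with MYCL, and was called higher (log2FC 2.35, SE 0.63, adjusted p = 0.0187). It passed the count filter only through the MYCL-overexpressing libraries, where it is high. This call, counted among the 2 that rose, is therefore no result about C4-2B. FRMD6, another upstream regulator, rose by 0.72 (SE 0.21, adjusted p = 0.0267). The kinases MAP4K4 and TAOK3, which can phosphorylate LATS or MST kinases, fell by 0.60 and 0.53 on the log2 scale (adjusted p = 0.000352 and 0.000822). The core kinase genes STK3, STK4, LATS1 and LATS2 were not called. Of these, STK3 passed the p threshold but not the fold minimum, with a log2FC of 0.37 (95% interval 0.18 to 0.57, adjusted p = 0.0104).

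CCN2 and TEAD1 fell in NCI-H660 cells with MYCL knockdown, and no member was called higher. Of 8 members tested, 2 were called, both lower, where 16.2% of the 16980 genes tested were called, 7.18% higher and 8.99% lower. The median log2FC of the members was 0.01, against -0.00 over all genes.

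CCN2 was at 2.52 and 3.37 CPM in shCtrl and 0.936 and 1.03 CPM in shMYCL libraries, a log2FC of -1.58 (SE 0.39, adjusted p = 0.00834). The groups did not overlap, and the counts of 111 and 32 over the 2 groups gave a ratio of 0.332 with a 95% counting interval of 0.217 to 0.496. Without shCtrl replicate 2 the call was lost, at a log2FC of -1.35 (adjusted p = 0.0619). TEAD1 was at 359 and 269 CPM in shCtrl and 227 and 207 CPM in shMYCL libraries, a log2FC of -0.54 (SE 0.13, adjusted p = 0.00609). The shCtrl libraries differed from each other by more than the lower of them differed from either shMYCL library. Without shCtrl replicate 1 the change was -0.31 and no longer called, and without shMYCL replicate 2 it was -0.47, also under the fold minimum.

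YAP1 was at 17.5 and 19.2 CPM in shCtrl and 25.2 and 25.4 CPM in shMYCL libraries. Its log2FC of 0.46 (95% interval 0.18 to 0.73, adjusted p = 0.0169) passed the p threshold but not the fold minimum, and reached 0.53 without shCtrl replicate 2, where it was called. The p threshold was missed without shMYCL replicate 1 or 2 (adjusted p = 0.0878 and 0.107) and in every TPM fit (adjusted p from 0.0886 to 0.217). TEAD4 was at 4.14 and 7.30 CPM against 7.74 and 9.08 CPM, a log2FC of 0.55 (adjusted p = 0.118) that rose to 1.02 (adjusted p = 0.0013) without shCtrl replicate 2 and dropped to 0.20 (adjusted p = 0.538) without shCtrl replicate 1. The size of the TEAD4 change thus depended on which shCtrl library was kept. WWTR1 was at 17.5 and 16.5 CPM against 18.0 and 20.2 CPM, with an interval of -0.13 to 0.46, which leaves out a change as large as that in C4-2B in either direction. The intervals were -0.67 to 0.38 for CCN1, -0.63 to -0.01 for AMOTL2 and -0.37 to 1.11 for LATS2, and none of these was called. ANKRD1, not tested, had 13 counts in shCtrl and 14 in shMYCL libraries, a ratio of 1.24 (0.54 to 2.86).

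Of the 17 other targets, 10 were tested in NCI-H660, 2 rose, none fell and 8 were not called, with a median log2FC of 0.30. Over all genes 16.2% were called, 7.18% higher and 8.99% lower. DOCK5, a Rac exchange factor, rose from 4.14 and 3.63 CPM to 10.1 and 7.87 CPM (log2FC 1.21, SE 0.22, adjusted p = 0.00117). F3, the tissue factor of the clotting cascade, rose from 5.32 and 5.00 CPM to 10.5 and 9.69 CPM (0.97, SE 0.19, adjusted p = 0.00206). Both rose while CCN2 fell. Of the 21 Hippo and cofactor genes, 19 were tested, 3 rose, 3 fell and 13 were not called, with a median of 0.08. Neither list was tested as a set against the 16.2% called over all genes. SAV1, the scaffold of the MST kinases, fell by 0.81 on the log2 scale (SE 0.11, adjusted p = 6.66e-05), the angiomotin AMOT fell by 0.59 and the kinase TAOK1 by 0.53. TAOK2 rose by 0.66, the angiomotin AMOTL1 by 0.59 and VGLL3, a TEAD cofactor that competes with YAP, by 0.61 (adjusted p = 0.000492, 0.000699 and 0.011). The list held changes in both directions within the angiomotins and within the TAO kinases.

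**Figure D3:**
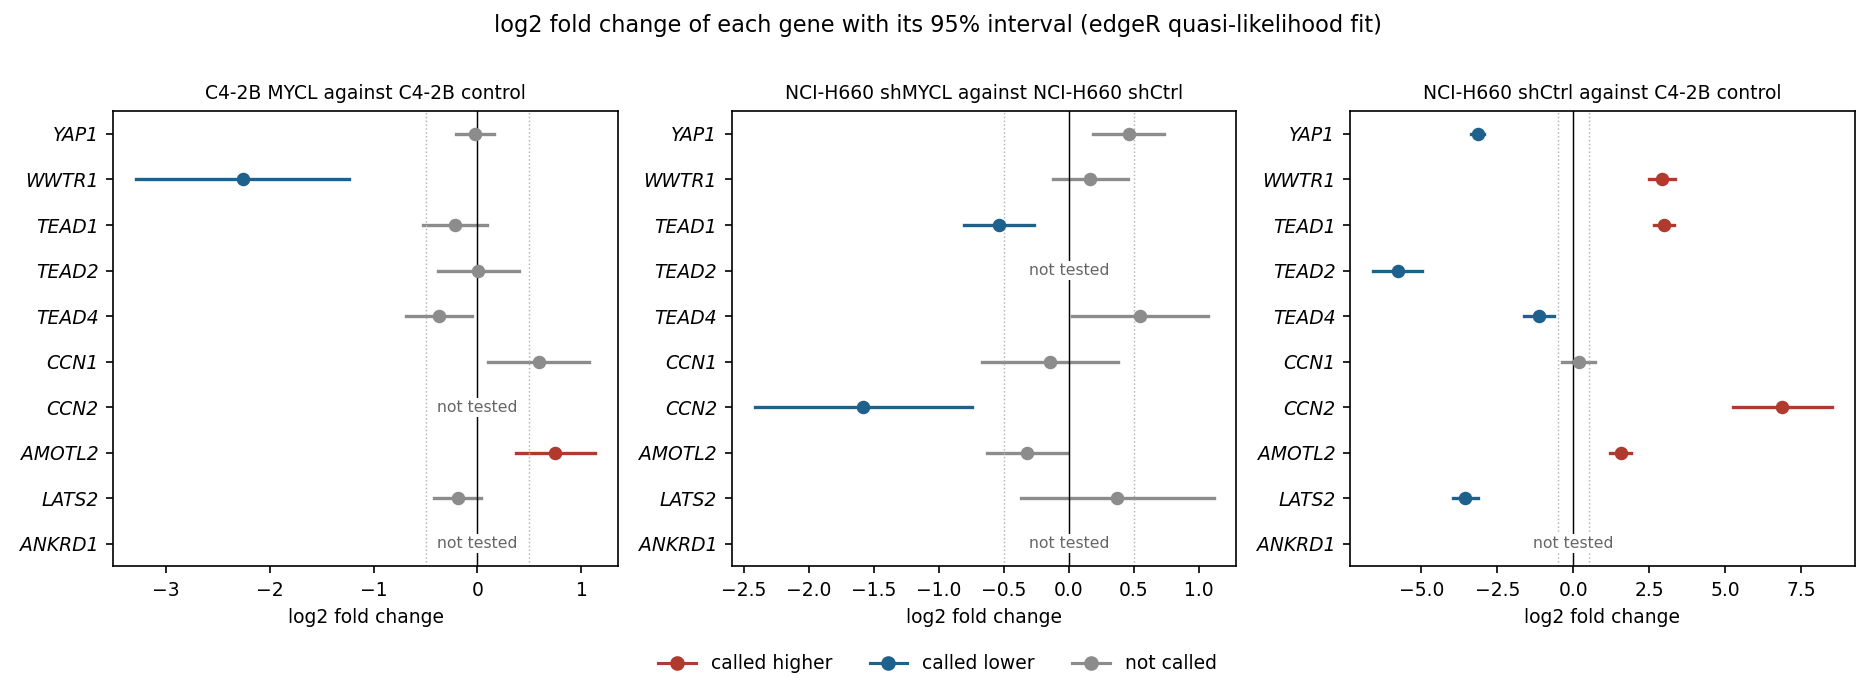
log2 fold change (points) with its 95% interval (lines) for each member in 3 comparisons from edgeR's quasi-likelihood fits; dotted lines mark the fold minimum of 0.5 in either direction, and genes marked not tested fell under the filter on low counts. WWTR1 at -2.26 in C4-2B and CCN2 at -1.58 in NCI-H660 are the largest shifts among tested members with MYCL, and the third panel has a wider axis.

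Between the 2 control conditions, shCtrl NCI-H660 and control C4-2B, nearly every member differed. These libraries differ in cell line and in the construct they carry, which cannot be told apart. Of 9 members tested, 4 were called higher and 4 lower in NCI-H660, where 69.8% of the 19605 genes tested were called, 36.5% higher and 33.3% lower, so that a call is common here. TEAD1 was higher by a log2FC of 2.97 (SE 0.15, adjusted p = 6.57e-10) and WWTR1 by 2.91 (SE 0.20, adjusted p = 1.13e-08). AMOTL2 was higher by 1.56 (SE 0.16, adjusted p = 9.72e-07). CCN2, called higher, had 111 counts in shCtrl libraries against 1 in the C4-2B controls, a ratio of 158 with a counting interval of 27.8 to 6290. These 4 genes span coactivator, partner, target and regulator.

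TEAD2, called lower in NCI-H660, had 5 counts in shCtrl libraries against 408 in the C4-2B controls. The ratio of C4-2B to NCI-H660 was 57.4, with a counting interval of 24.4 to 178. Both CCN2 and TEAD2 passed the count filter only through the line where they are high. Also lower were LATS2 (log2FC -3.55, SE 0.18), YAP1 (-3.14, SE 0.10, adjusted p = 5.7e-12) and TEAD4 (-1.14, SE 0.23, adjusted p = 0.000435). CCN1 was at 5.27 and 5.51 CPM in C4-2B and 4.76 and 7.35 CPM in NCI-H660, with a log2FC of 0.17 (95% interval -0.36 to 0.71). Its direction depended on the scale, with 0.56 for log2(TPM + 1), a scale on which all genes had a median of 0.53, and -0.19 once library medians were made equal. Across the 17 other targets, 13 were tested, with 6 higher, 5 lower and 2 not called, where 69.8% of all genes were called. F3 had 193 counts in shCtrl libraries and 1 in C4-2B controls (ratio 275, counting interval 48.7 to 10900), GADD45A was higher by 3.12 and MYOF by 1.59. CCDC80 was higher by 1.67 (SE 0.59) on few counts, 16 and 14 in shCtrl libraries against 6 and 7 in C4-2B controls. Lower were PTPN14, a phosphatase that restrains YAP (log2FC -5.45), DOCK5 (-3.62) and IGFBP3, which had 3 counts against 137. CRIM1 was also called lower, with 4 and 3 counts in shCtrl libraries against 350 and 335 in C4-2B controls. F3, CRIM1 and IGFBP3 passed the count filter only through the line where they are high.

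The Hippo and cofactor list had 19 genes tested between the lines, with 10 higher, 4 lower and 5 not called. Among all genes 69.8% were called, 36.5% higher and 33.3% lower, so a call is common here too. VGLL3 had 230 and 192 counts in shCtrl libraries and 0 in both C4-2B controls, at least 200 times higher when 3 counts are allowed over the controls. AMOTL1 was higher by a log2FC of 5.66 and FRMD6 by 3.16. WWC2 was higher by 3.52 (SE 0.58) on few counts, 40 and 27 in shCtrl libraries against 4 in each C4-2B control. Lower were TAOK3 (log2FC -3.30), NF2, which encodes the upstream tumor suppressor merlin (-2.33), WWC1 (-0.87) and TAOK2 (-0.71). The median was 0.82 for this list and 0.85 for the other targets, against 0.03 over all genes. Neither list was tested as a set.

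The change with MYCL differed between the lines for WWTR1 and TEAD1. The perturbations were unlike, with a log2FC of MYCL of 8.26 by overexpression in C4-2B and -3.06 by shRNA in NCI-H660. Line, kind of construct and size of the MYCL change therefore cannot be told apart here. High and low MYCL were set against each other in each line, MYCL-overexpressing minus control in C4-2B and shCtrl minus shMYCL in NCI-H660, and the difference of these differences was tested in a fit of all 8 libraries. It was called for 2 of 9 members, both higher, where 17.9% of 19605 genes were called, 8.33% higher and 9.59% lower. For WWTR1 the high minus low difference (log2) was -2.25 in C4-2B against -0.17 in NCI-H660, and these differed by 2.09 (SE 0.37, adjusted p = 0.00173). For TEAD1 it was -0.22 against 0.53, differing by 0.75 (SE 0.21, adjusted p = 0.0223), a call that 4 of the 8 fits without a single library lost. For YAP1 the values were -0.03 and -0.46, with a difference of -0.43 (adjusted p = 0.0417) under the fold minimum. The CCN2 estimate was positive in both lines, but the C4-2B value rests on 10 counts in all and the difference was not called (adjusted p = 0.273). The differences for TEAD4, CCN1, AMOTL2 and LATS2 were not called either, with adjusted p from 0.221 to 0.787. TEAD2 was not called, but its low counts in NCI-H660 leave that difference undecided (95% interval -1.51 to 1.73).

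**Figure D4:**
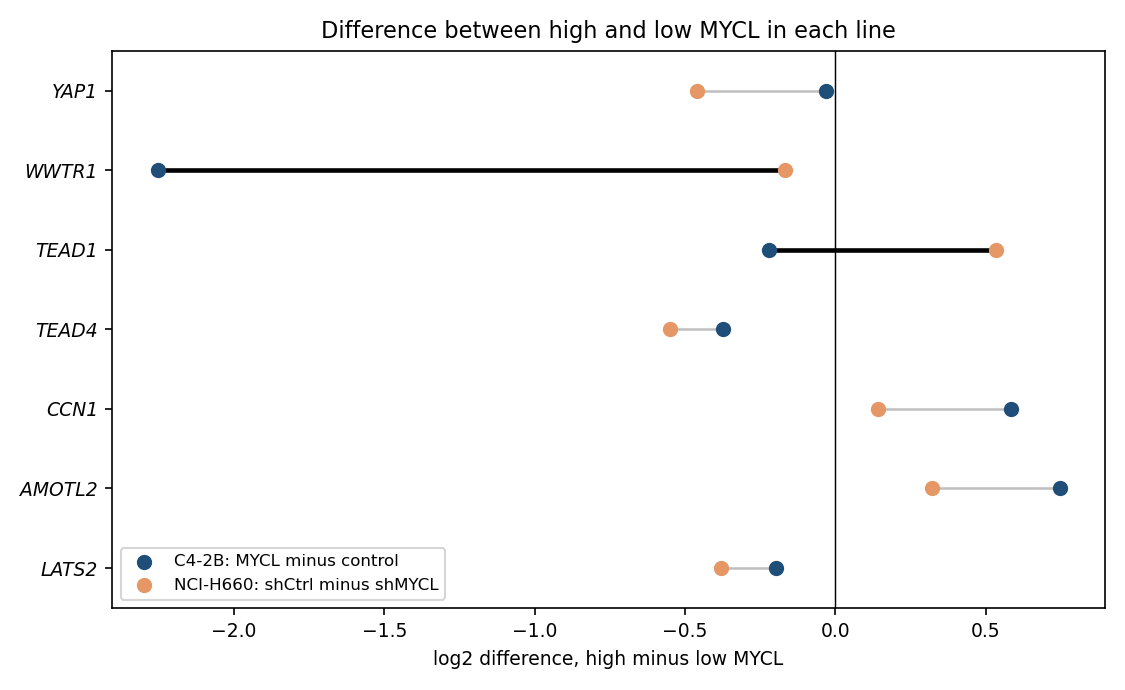
log2 difference between high and low MYCL in C4-2B (MYCL-overexpressing minus control) and NCI-H660 (shCtrl minus shMYCL), joined by a line that is black and thick where the difference between the lines was called. WWTR1 runs from -2.25 to -0.17 and TEAD1 from -0.22 to 0.53; CCN2, TEAD2 and ANKRD1 are left out for their low counts.

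The genes whose levels ran most like YAP1 over the 8 libraries, by Pearson's r of log2(CPM + 1), were LAMA3, PRDX3, ZNF268, ACAT1 and ITPRID2, with r from 0.9986 to 0.9992. For WWTR1 they were MSH6, CCNE2, ZNF76, PHTF2 and POLD3, with r from 0.9979 to 0.9989. The libraries fall into 2 cell lines, which can give a high r to a gene that differs between them. An r over 0.95 was reached by 2953 of 19604 genes with YAP1 and by 2446 with WWTR1. These likenesses are given as a description only.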

How the data were processed

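For 8 poly(A)-selected, paired-end libraries the authors deposited estimated counts per gene, not normalized between libraries, and TPM values, scaled for gene length and library size. Of the non-zero counts, 34.4% are not whole, so they were rounded before testing. The submitters' processing notes name the build hg38; the aligner and counter are not given in the sources used here. The TPM table deposited by the authors holds 65535 of the 78691 rows, all members among them, and TPM was used for levels between genes. Counts were fitted per line in edgeR 4.0.16 (R 4.3.3) after TMM scaling and filterByExpr, by the quasi-likelihood test, with Benjamini-Hochberg adjusted p over every gene tested. The line contrast and the difference between lines came from a fit of all 4 groups. Normalized CPM are rounded counts over the TMM-scaled size of each of the 8 libraries. Alternatives were DESeq2 1.42.0, relative log expression factors, other filters and thresholds, limma 3.58.1 on log2(TPM + 1) or log2(TPM + 0.1) keeping genes that reached a TPM of 1 in 2 libraries, or keeping all, a replicate block, other samples in the fit and each library left out. TPM with equal library medians was added after seeing the data.

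The members and lists were chosen with earlier results of these data known. Named genes are the 10 members, at most 4 called genes of each list in each direction and comparison by absolute log2 fold change, MYCL, and the 5 genes most correlated with YAP1 or WWTR1. The core kinases and the single fibroblast, endothelial and basal markers were named after their values were seen. Gene positions came from GENCODE 44, which matched all 10 identifiers, and promoters from RefSeq. The tests were tested on simulated counts. Tables and figures used Python 3.11.15, pandas 2.3.3 and matplotlib 3.10.9. Counting intervals are exact 95% intervals, and a count of 0 allows up to 3 counts. The qPCR, reporter and growth experiments were not analysed here.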

Additional observations from a re-analysis of the deposited data

Results flagged for a closer look

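Results here are those where the change with MYCL differed between the 2 lines by the test of that difference in the fit of all 8 libraries. Line, kind of construct and size of the MYCL change cannot be told apart in that test. For WWTR1, the high minus low MYCL difference in NCI-H660 exceeded that in C4-2B by 2.09 on the log2 scale (adjusted p = 0.00173, edgeR's quasi-likelihood test). It stayed called in all 8 fits that left out a single library, from 1.66 to 2.70. For TEAD1 the same difference was 0.75 (adjusted p = 0.0223), with a range of 0.53 to 0.98 without a single library and adjusted p from 0.00428 to 0.102.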

How the results depend on the processing

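Of the log2 fold changes of tested members over all alternatives, 428 kept direction and side of the threshold, 28 fell below it, 10 passed it and 24 changed sign, and the cause of these shifts was not tested. The replicate numbers did not pair the libraries (correlation of same-numbered deviations 0.017 in C4-2B and 0.026 in NCI-H660), and a replicate block added CCN1 in C4-2B (0.58, adjusted p = 0.0489) and TEAD4 in NCI-H660 (0.59, adjusted p = 0.036) to the calls among members and removed none.

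On log2(TPM + 1) the median of all genes moved to -0.14 in C4-2B and to 0.53 between the lines, and the share of calls that were higher went from 59.2% to 33.5% and from 52.2% to 71.1%. For the difference between the lines it went from 46.5% to 64.3%. With equal library medians these shares were 60.7%, 40.8% and 51.8%. WWTR1 in C4-2B was under the TPM filter, and without that filter it was at -0.55 (adjusted p = 0.0617). The number of members called in C4-2B went from 2 to 0 at log2(TPM + 1), with or without the filter, to 1 with equal medians (AMOTL2) and to 1 at a fold minimum of 1 (WWTR1). At log2(TPM + 0.1) it was 1, but that was TEAD4, lower at -0.53 (adjusted p = 0.0159), while AMOTL2 was not called (adjusted p = 0.103). The 2 called in NCI-H660 became 0 in each TPM fit and 1 at that minimum. The 2 called for the difference between the lines became 0 at log2(TPM + 1), unfiltered or with equal medians too, and 1 at log2(TPM + 0.1), at that minimum, or with at least 10 counts in every library. That count filter left 5 of 8 members and 6 of 11 other targets between the lines.

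The 2 other targets called in C4-2B became 1 with DESeq2, with unfiltered or equal-median TPM, in the fit of all 4 groups and at a fold minimum of 1. The 2 in NCI-H660 became 1 at log2(TPM + 1), at log2(TPM + 0.1), with equal medians and at that minimum, and 0 without the TPM filter. The 4 Hippo and cofactor genes in C4-2B became 8 with no fold minimum, 1 at a minimum of 1 and 1 with equal medians, and the 6 in NCI-H660 became 0 at that minimum and 0 without the TPM filter. Over all genes in NCI-H660, the unfiltered TPM fit called 1 gene where 2745 were called, so it says little of single genes.

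The sign of TEAD2 in C4-2B turned to -0.015 without a count filter, -0.041 on log2(TPM + 1), filtered or not, and -0.052 on log2(TPM + 0.1). CCN1 between the lines turned to -0.19 with equal medians. For the difference between the lines, CCN2 turned to 0.71 on log2(TPM + 1), filtered or not, 0.30 on log2(TPM + 0.1) and 0.62 with equal medians, LATS2 to 0.12, 0.0063 and 0.029 in the same fits, and TEAD2 to -0.041 with equal medians. None of these values passed the threshold in either fit.

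Without a single library, where a lone library is assumed to vary like the others, between 1 and 3 members were called in C4-2B, 1 and 3 in NCI-H660, 8 in every fit between the lines, and 1 and 2 for the difference between them. The other targets called ranged from 1 to 2 and from 2 to 3 in C4-2B and NCI-H660, and the Hippo and cofactor genes from 2 to 3 and from 4 to 8. WWTR1 in C4-2B ranged from -2.87 to -1.84 and stayed called. Signs changed within -0.10 to 0.038 for YAP1 and -0.091 to 0.11 for TEAD2 in C4-2B, -0.42 to 0.21 for CCN1 in NCI-H660 and -0.17 to 0.46 between the lines, and, for the difference between the lines, -0.12 to 0.31 for TEAD2, -0.64 to 0.18 for TEAD4 and -0.47 to 0.088 for LATS2. Depth limits TEAD2 in NCI-H660 and ANKRD1 in every group, and the size of the CCN2 change in C4-2B. That change rests on few counts and was called only in the fit of all 4 groups, which CCN2 entered through its NCI-H660 counts.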
